A study of Citrus sinensis with 4 samples.

Results

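A set of 129 loci expressed in peel of 'Newhall' navel orange was clearly lower at 150 than at 120 days after flowering. A locus was included when it carried 1 reference identifier, had a mean of at least 5 FPKM at 120 days, and its lower 120-day value was at least 2 times its higher 150-day value. The rule was applied to all 4 libraries and selected 0.449% of the 28724 loci with 1 identifier, or 1.01% of the 12790 of them whose mean reached 5 FPKM at 120 days. FPKM is a fragment number scaled to transcript length and to the mapped fragments of the library. It allows levels to be set side by side between loci.

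'Newhall' is a navel type of Citrus sinensis, the sweet orange, and sets fruit without seeds. Peel was sampled from untreated fruit, with 2 libraries taken 120 days and another 2 taken 150 days after flowering, each described in the series as a pool and the pair of each stage as independent biological replicates. The series title sets the comparison in the formation of the cuticle during fruit development and ripening. The labels do not say which layers of the peel were taken, how many fruits or trees went into a pool, or what libraries of the same number share.

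Citrus peel is built of an outer coloured layer, the flavedo, which carries the epidermis, oil glands and pigmented plastids, and an inner white layer, the albedo. The epidermis makes the cuticle, a polyester of cutin filled and covered with waxes, from fatty acids that are elongated, modified and exported to the surface. As the fruit ripens, chlorophyll is broken down, carotenoids accumulate and the wax load of the surface changes. In RNA from pooled peel, fewer cells of a type and less RNA per cell cannot be told apart.

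The deposited table pairs loci with identifiers that begin with Cs, followed by a series number, or with orange1.1t, and with no gene name or function. None of the 129 identifiers was found among the 29331 genes of the RefSeq table for the sweet orange assembly DVS_A1.0 (0 of 129). The loci below are therefore called by their identifiers alone and no role is given to them. Markers of epidermis, green tissue or vascular tissue could not be looked up for the same reason, so the labelled tissue was not checked against its markers, and no sequence is shown.

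The 129 loci spanned a wide range of levels. Their mean FPKM at 120 days ran from 5.37 to 2315, with a median of 18.7 and quartiles of 9.85 and 76.8. At 150 days the means ran from 0 to 780 FPKM, with a median of 5.99 and quartiles of 2.71 and 25.3. Most were lowered, not lost: 69 of the 129 still had at least 5 FPKM in each library of 150 days, and 2 were listed at 0 in both.

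By library, the median FPKM of the 129 loci was 16.9 and 18.5 at 120 days (replicates 1 and 2) and 5.59 and 6.26 at 150 days. The median of the 18727 loci whose mean reached 1 FPKM lay between 14.6 and 15.1 in every library. The 129 loci were selected on their FPKM at both stages and had to reach a mean of 5 FPKM at 120 days. These medians therefore rest on unequal filters. Over all loci with 1 identifier and at least 5 FPKM at 120 days, the median of the 120-day means was 21.6 FPKM. It was 18.7 FPKM for the selected loci, which thus started below the typical locus of that level. Their fall by 150 days is fixed by the rule. Summed over the 129 loci, FPKM came to 11720 and 13316 at 120 days and 4400 and 4328 at 150 days. This was 1.56% and 1.77% of the sum over loci with 1 identifier at 120 days, and 0.565% and 0.498% at 150 days. The 5 highest loci held between 43.6% and 47.5% of these sums in each library. Without them the sums were 6284 and 7201 FPKM at 120 days, then 2311 and 2440 FPKM at 150 days.

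**Figure D1:**
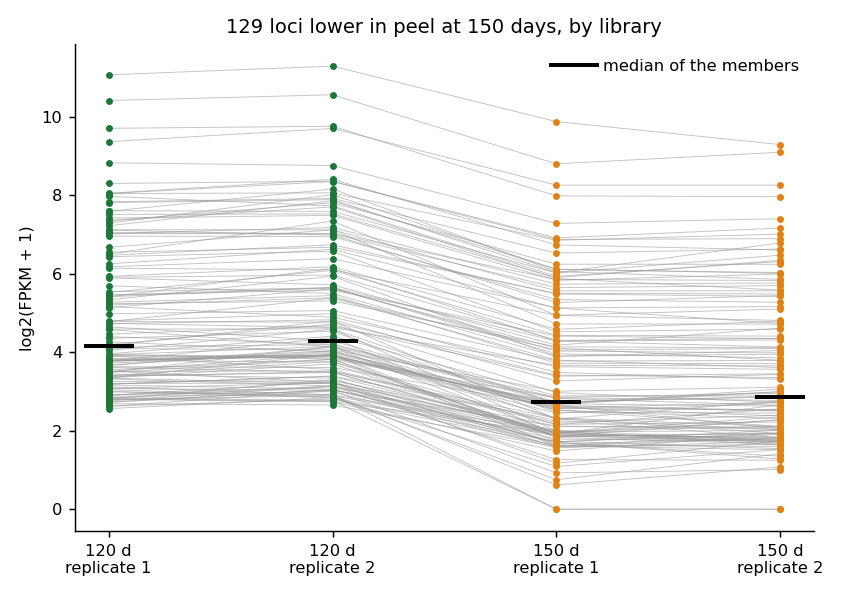
Levels of the 129 falling loci in each library, as log2(FPKM + 1); each grey line joins the 4 values of 1 locus, green points are 120-day and orange points 150-day libraries, and black bars are medians. The median FPKM was 16.9 and 18.5 at 120 days and 5.59 and 6.26 at 150 days, and 2 loci end at 0.

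The falls were of moderate size. Among the 127 loci above 0 in every library, the mean at 120 days was between 2.12 and 9.11 times the mean at 150 days, with a median of 2.90 and quartiles of 2.58 and 3.39. The stricter ratio used by the rule, of the lower 120-day to the higher 150-day value, had a median of 2.47 in these loci and a highest value of 7.75. It was under 2.5 at 67 of the 129 loci, at least 3 at 27 and at least 4 at 9, counting the 2 loci listed at 0 among the high ones. These values chose the loci and are given as a description.

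**Figure D2:**
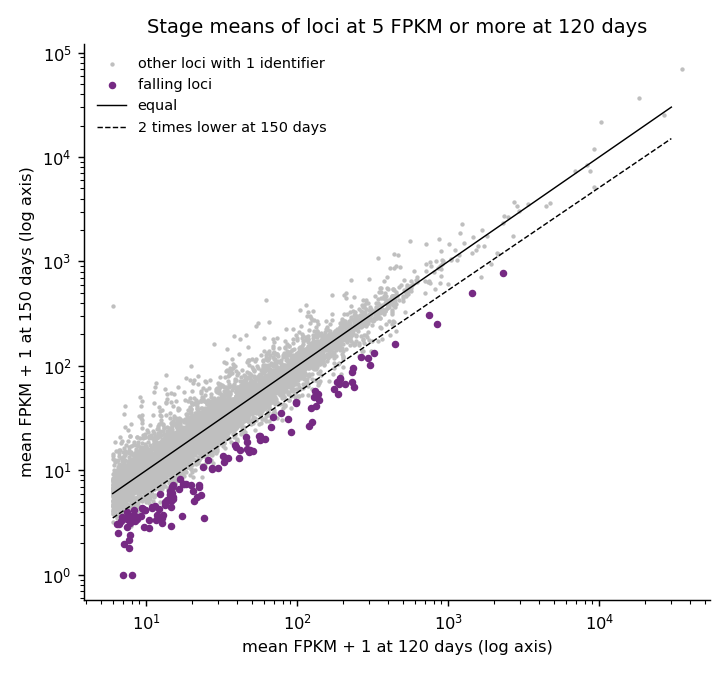
Mean FPKM + 1 at 150 days against that at 120 days on log axes, for the 12790 loci with 1 identifier and at least 5 FPKM at 120 days; the 129 falling loci are purple, the solid line marks equal means and the dashed line means 2 times lower at 150 days. The ratios of the means of the falling loci ran from 2.12 to 9.11, apart from 2 loci at 0 FPKM at 150 days.

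The steepest fall among loci above 0 in every library was at Cs5g33710 (XLOC_014626). It had 23.0 and 23.2 FPKM in the 120-day libraries and 2.97 and 2.1 FPKM at 150 days. The mean of 23.1 ± 0.090 FPKM (SD, n = 2) thus stood 9.11 times above that of 2.54 ± 0.62 FPKM, a log2 change of -2.78 (SE 0.19) on the log2(FPKM + 1) scale. The 120-day libraries were almost equal and far above both 150-day libraries.

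Cs1g16180 (XLOC_000767) followed, at 13.0 and 14.2 FPKM at 120 days, then 2.06 and 1.86 FPKM at 150 days, a log2 change of -2.30 (SE 0.17). Cs7g26250 (XLOC_020013) was at 6.94 and 6.49 FPKM and then at 0.536 and 1.11 FPKM, so its 150-day libraries differed 2.07 times between themselves at a very low level. The locus orange1.1t03175 (XLOC_026309) had 5.15 and 7.12 FPKM at 120 days, then 0.900 and 1.02 FPKM at 150 days. At 150 days these loci were near 1 or 2 FPKM, a level at which the added pseudocount of 1 shrinks the log2 change.

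Cs9g06230 (XLOC_022897) stood at 12.6 and 19.7 FPKM and then at 2.76 and 2.53 FPKM, with the larger spread at 120 days. Cs3g26900 (XLOC_008861) was at 19.4 and 22.1 FPKM at 120 days, then at 4.54 and 4.46 FPKM at 150 days. Cs3g05300 (XLOC_007767) was at 5.77 and 7.79 FPKM and then at 1.40 and 1.38 FPKM. In these 3 loci the 150-day libraries were close to each other, and 120-day replicate 2 was above replicate 1.

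Cs6g12390 (XLOC_015472) was the only abundant one of the 8 loci with the largest ratios. It had 100.8 and 137.8 FPKM at 120 days, then 25.3 and 25.3 FPKM at 150 days. Its means of 119 ± 26.1 and 25.3 ± 0.049 FPKM (SD, n = 2) differed 4.71 times, with a log2 change of -2.18 (SE 0.19).

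Cs5g03850 (XLOC_011328) and orange1.1t02897 (XLOC_029195) were listed at 0 in both 150-day libraries. At 120 days the first stood at 6.16 and 5.82 FPKM and the second at 7.65 and 6.54 FPKM. Where Cufflinks lists 0 the estimate may have failed, and no fold is given. Of the 129 loci, these 2 alone were under 1 FPKM in both 150-day libraries, and Cs7g26250, orange1.1t03175 and Cs1g25040 had 1 value each below that level.

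The most abundant of the falling loci was Cs6g11570 (XLOC_015434), with 2138 and 2492 FPKM at 120 days, then 936 and 623 FPKM at 150 days. Its means of 2315 ± 249.7 and 780 ± 221 FPKM (SD, n = 2) differed 2.97 times. It also had one of the wider spreads at 150 days, where replicate 1 was 1.502 times replicate 2. Even so, the lower 120-day library was 2.28 times the higher 150-day library.

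The locus orange1.1t05560 (XLOC_027597) had 1358 and 1503 FPKM at 120 days, then 443.5 and 544.5 FPKM at 150 days. Cs9g14380 (XLOC_023342) had 831 and 862 FPKM and then 251 and 248 FPKM, so both stages were tight, and the means differed 3.39 times. Cs3g03135 (XLOC_006243) had 656 and 829 FPKM at 120 days, then 304 and 304 FPKM at 150 days. With Cs6g11570, these were the 4 falling loci above 500 FPKM at 120 days, and Cs6g11570, orange1.1t05560 and Cs3g03135 were also the 3 highest falling loci at 150 days.

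Below them, orange1.1t02003 (XLOC_028719) was at 452 and 430 FPKM at 120 days, then at 154 and 168 FPKM at 150 days. Cs7g18780 (XLOC_019637) went from 313 and 326 FPKM to 119 and 142 FPKM. Cs5g18620 (XLOC_012077) was at 263.5 and 337 FPKM and then at 105 and 96.1 FPKM. Cs8g09090 (XLOC_021886) was at 262 and 324 FPKM at 120 days, then at 116 and 118 FPKM at 150 days. The log2 changes of the 8 most abundant falling loci lay between -1.76 at Cs9g14380 and -1.27 at Cs3g03135, with SE between 0.14 and 0.26. None of the 8 was among the 8 loci with the largest ratios.

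**Figure D3:**
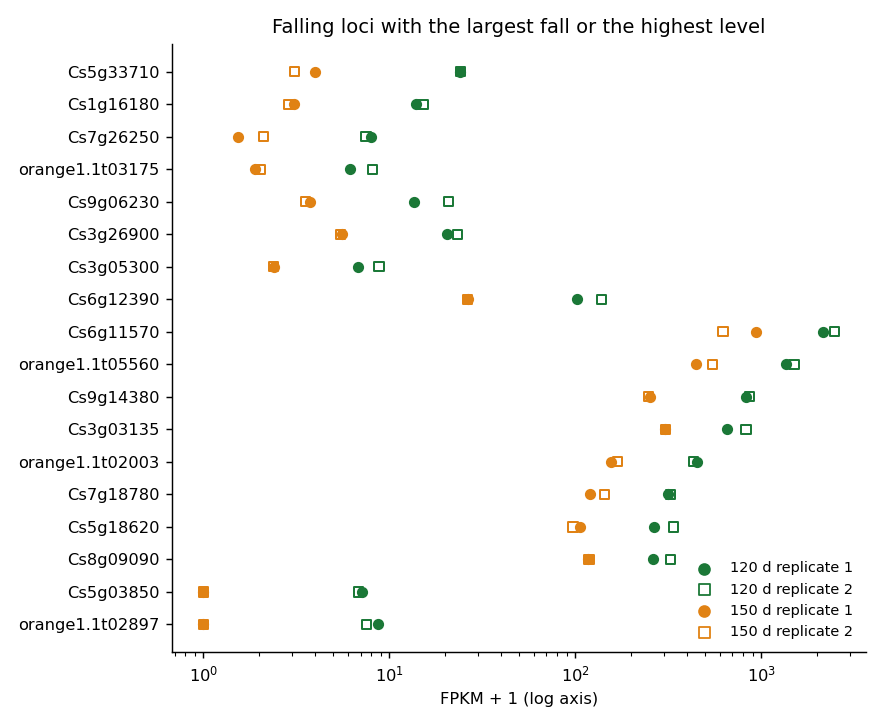
FPKM + 1 in each library, on a log axis, for the 8 falling loci with the largest ratios (from the top), the 8 most abundant at 120 days, and the 2 listed at 0 at 150 days (at the bottom); green marks are 120-day and orange marks 150-day libraries, filled circles replicate 1 and open squares replicate 2. The stages do not overlap, by the rule, and the wide spread at 150 days of Cs6g11570 (936 and 623 FPKM) stands out among the abundant loci.

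At the edge of the rule, values on both sides were alike. The 3 loci with the smallest ratios were orange1.1t01963, at 87.5 and 105.4 FPKM and then 43.7 and 41.8 FPKM, Cs5g27440, at 13.98 and 14.1 FPKM and then 5.37 and 6.98 FPKM, and Cs1g14580, at 69.5 and 67.3 FPKM and then 29.7 and 33.2 FPKM. Just outside were Cs1g12460, at 9.71 and 10.4 FPKM and then 3.40 and 4.86 FPKM, Cs6g18680, at 1516 and 1792 FPKM and then 668 and 761 FPKM, and orange1.1t00831, at 23.1 and 21.5 FPKM and then 9.56 and 10.8 FPKM. The ratios were 2.003, 2.004 and 2.025 inside and 1.998, 1.991 and 1.988 outside. There were 17 falling loci with a ratio under 2.1 and 20 excluded loci between 1.9 and 2. A further view of the edge is that 106 loci of at least 5 FPKM had stage means at least 2 times apart but did not meet the rule, and at 3 of these the stages overlapped.

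All 129 loci were among the 18727 tested across the table with limma on log2(FPKM + 1), which they had to be, since a mean of 5 FPKM at 120 days alone passes the filter. At a Benjamini-Hochberg adjusted p of 0.05 over all tested loci, limma called 0.940% of loci lower at 150 days, 176 in all, and 110 of these were among the 129. Both 120-day values were above both 150-day values at 22.4% of the tested loci, and at all 129 by the rule. Because the rule used the same contrast, the share of called loci is a description and lends no support to the selection. The median log2 change was -1.40 over the 129 loci (SE per locus between 0.13 and 0.31) and -0.01 over all tested loci.

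The calls depended on each library. Without 120-day replicate 1, limma called 61 of the 129 loci, where 0.486% of all tested loci were called lower. Without 120-day replicate 2 it called 20 of the 129, beside 0.192% of all loci. Without 150-day replicate 1 it called 3, beside 0.0534%, and without 150-day replicate 2 it called 0, beside 0.0214%. In that last fit the log2 change was negative at 129 of the 129 loci, which the rule fixes in advance. Each such fit has 1 residual degree of freedom. The remaining library of a stage is then assumed to vary like the other stage.

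The 19 uncalled loci were mostly of low level. Their median at 120 days was 6.59 FPKM, against 22.3 FPKM for the 110 called ones, and their median ratio of the lower 120-day to the higher 150-day value was 2.12, against 2.54. Their adjusted p lay between 0.0509 and 0.0812 (limma, Benjamini-Hochberg). Of the 34 falling loci between 5 and 10 FPKM at 120 days, 19 were called, while of those at 100 FPKM or more, 23 of 24 below 500 FPKM and 4 of 4 above were called. Conversely, limma called 45 loci with 1 identifier that did not meet the rule, 9 of them with a mean under 5 FPKM at 120 days and 36 with a ratio under 2.

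The share of loci that met the rule depended on their level and was lowest in the middle of the range. Between 5 and 10 FPKM at 120 days 34 of 2464 loci met the rule (1.38%), between 10 and 20 FPKM 33 of 3520 (0.938%), between 20 and 50 FPKM 23 of 4054 (0.567%) and between 50 and 100 FPKM 11 of 1572 (0.700%). The share was 2.21% between 100 and 500 FPKM, 24 of 1087, and 4.30% above 500 FPKM, 4 of 93. The share at 100 FPKM and above, 2.37%, was thus well over that between 20 and 50 FPKM. It ranged from 2.63% to 4.15% when any one library was left out, against 0.691% to 1.04% between 20 and 50 FPKM. Leaving out a library loosens the rule, and 128 or 129 of the 129 loci still met it. These shares could therefore hardly fall and are no separate check of the pattern. The pattern depended on the fold. At a fold of at least 3 the shares were 0.339% at 100 FPKM and above and 0.0987% between 20 and 50 FPKM, with 4 loci each, and 0.365% between 5 and 10 FPKM. At a fold of at least 4 the order turned, with 0 of 1180 loci at 100 FPKM and above, 2 of 4054 between 20 and 50 FPKM (0.0493%) and 5 of 2464 between 5 and 10 FPKM (0.203%).

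Loci that were higher at 150 days also made up larger shares at high levels. Each set was binned by its level at the stage where its own rule makes it high. Both profiles are therefore descriptions, and neither is a check of the other. Under the mirrored rule, with a mean of at least 5 FPKM at 150 days, 254 of 12837 loci (1.98%) were higher at 150 days. Binned by their 150-day level, these made up 2.4% of loci between 5 and 10 FPKM, 1.8% between 10 and 20 FPKM and 1.37% between 20 and 50 FPKM. The share was 2.4% between 50 and 100 FPKM, 3.0% between 100 and 500 FPKM (33 of 1100) and 3.74% above 500 FPKM (4 of 107). Between 50 and 100 FPKM the rising loci were above their overall share and the falling ones below theirs, and no test compared the courses. The median ratio of the higher to the lower 120-day value, over all loci of a band, was 1.18 between 5 and 10 FPKM and 1.16 between 10 and 20 FPKM. It was 1.15 in each band from 20 to 500 FPKM and 1.20 above 500 FPKM. The part of this spread in the shares was not tested.

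By identifier series, Cs5g held the most falling loci. It had 26 of the 129 (20.2%), against 12.9% of the loci with at least 5 FPKM at 120 days. Within Cs5g 26 of 1647 such loci met the rule (1.58%), while in all other series together 103 of 11143 did (0.924%). The other 9 series lay between 0.697% in Cs7g, 11 of 1579 loci, and 1.17% in Cs2g, 17 of 1455. The orange1.1t identifiers, with 18 of 1818 (0.990%), were at the average.

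The excess in Cs5g depended on the fold. With a fold of at least 1.5, 45 of 356 falling loci were from Cs5g, or 12.6%, against 12.9% of all loci of that level. The median log2 change over all 1647 Cs5g loci was -0.02, as over all loci with at least 5 FPKM at 120 days. In Cs5g, rising loci under the mirrored rule numbered 27, close to the 26 falling ones. Over all series there were 254 rising and 129 falling loci. Cs7g held 34 rising and 11 falling loci and Cs2g 41 rising and 17 falling loci. Between these lay orange1.1t, with 28 rising and 18 falling loci, and Cs8g, with 15 and 9. No test was made of these differences between series.

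**Figure D4:**
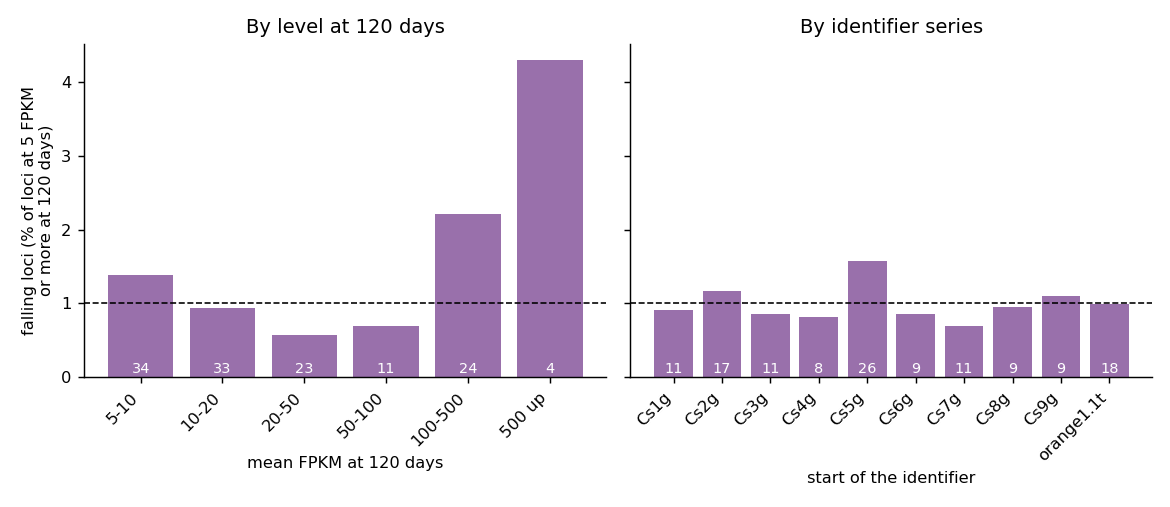
Falling loci as a percentage of loci with 1 identifier and at least 5 FPKM at 120 days, by level at 120 days and by identifier series; the number of falling loci stands in each bar and the dashed line marks the share over all such loci, 1.01%. The share is lowest between 20 and 50 FPKM (0.567%), and among the series it is highest in Cs5g (1.58%).

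Within Cs5g the falling loci were densest from Cs5g10000 to Cs5g14999, with 8 of 222 loci of sufficient level (3.60%). This window was singled out after its values were seen. Its loci were Cs5g10800, Cs5g11770, Cs5g12270, Cs5g12420, Cs5g13290, Cs5g13860, Cs5g13890 and Cs5g13960, with 120-day means from 10.4 to 189 FPKM and stage means 2.30 to 4.52 times apart. The window below it, down to Cs5g05000, had 5 of 286, and the one above it 3 of 168.

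The last 3 of these identifiers lie close together and differed in the same direction between the 120-day libraries. Cs5g13860 (XLOC_011824) was at 148 and 230 FPKM at 120 days, then at 68.3 and 63.3 FPKM at 150 days. Cs5g13890 (XLOC_011826) was at 89.4 and 161 FPKM and then at 29.6 and 27.0 FPKM. Cs5g13960 (XLOC_011830) was at 16.9 and 26.9 FPKM and then at 3.91 and 5.77 FPKM. All 3 were more than 1.5 times higher in 120-day replicate 2 than in replicate 1. A gap of that size was found at 10 of the 129 falling loci, these 3 included, and replicate 2 was the higher library at all 10. In either direction it was found at 919 of the 12790 loci with at least 5 FPKM at 120 days, so its size was not particular to the falling loci. Its direction was not counted over the 12790 loci. At 150 days replicate 1 was the higher library at Cs5g13860 and Cs5g13890, and replicate 2 at Cs5g13960. Of the 8 Cs identifiers between them in the table, Cs5g13870 was above 1 FPKM at 120 days. It had 20.8 and 19.0 FPKM at 120 days, then 13.7 and 12.4 FPKM at 150 days.

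A tighter run was found at Cs1g23150 to Cs1g23200, where 4 of 6 successive loci met the rule. Only Cs1g23170 and Cs1g23180 were named for consecutive locus numbers. The run was drawn to begin and end on falling loci after the values were seen, so its density is a description only. Cs1g23150 (XLOC_001128) stood at 9.58 and 12.6 FPKM at 120 days, then at 2.64 and 3.86 FPKM at 150 days. Cs1g23170 (XLOC_001130) stood at 7.95 and 7.34 FPKM and then at 2.04 and 2.85 FPKM, and Cs1g23180 (XLOC_001131) at 10.7 and 13.1 FPKM and then at 2.598 and 2.82 FPKM. Cs1g23200 (XLOC_001133) was far more abundant, at 137 and 125 FPKM at 120 days, then 37.4 and 42.5 FPKM at 150 days. The log2 changes of the 4 loci were -1.51, -1.34, -1.80 and -1.69. Over all falling loci the quartiles of the log2 change were -1.65 and -1.24. The rule sets a fall of at least 2 times at each locus, so a likeness of the 4 changes is a description only. Whether they were more alike than those of other falling loci was not tested.

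The loci between them were barely expressed. Cs1g23160 had 2.26 and 1.51 FPKM at 120 days, then 0.957 and 0.419 FPKM at 150 days. Cs1g23190 had 0.372 and 1.29 FPKM at 120 days, and at 150 days it was listed at 0 in replicate 1 and at 0.390 FPKM in replicate 2, so that the stages overlapped there. Cs1g23160 was lower in both 150-day libraries but did not reach the level asked for by the rule.

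Other neighbouring pairs followed. Cs1g25030 (XLOC_002594) was at 9.87 and 9.09 FPKM at 120 days, then at 2.16 and 2.503 FPKM at 150 days, and Cs1g25040 (XLOC_002595) was at 7.26 and 6.23 FPKM and then at 0.685 and 1.66 FPKM. Cs9g14360 (XLOC_023341) had 161.5 and 207 FPKM and then 57.7 and 46.8 FPKM, next in locus number to the abundant Cs9g14380 described above. Between them in identifier order lies Cs9g14370 (XLOC_024288), which was not selected but had 32.4 and 43.1 FPKM at 120 days, then 19.1 and 14.4 FPKM at 150 days. All 3 loci of that stretch were thus lower in both 150-day libraries.

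In the Cs4g series, Cs4g06040 (XLOC_009350) was at 223 and 235 FPKM at 120 days, then at 64.2 and 109 FPKM at 150 days, and its neighbour Cs4g06030 (XLOC_010374) was at 12.7 and 14.1 FPKM and then at 5.25 and 4.70 FPKM. Further on, Cs4g06630 was at 26.5 and 26.2 FPKM and then at 9.68 and 9.22 FPKM, Cs4g06640 at 21.0 and 24.5 FPKM and then at 9.48 and 9.92 FPKM, and Cs4g06670 at 129 and 128 FPKM and then at 49.0 and 50.8 FPKM. The locus Cs4g06650 inside this last stretch lay the other way, with 129 and 112 FPKM at 120 days, then 136 and 159 FPKM at 150 days. A neighbour of falling loci was thus not always lower. The Cs4g and Cs5g stretches, and the ends of the run from Cs1g23150 to Cs1g23200, were named after their values were seen.

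Over the whole table, 111 of the falling loci carried a Cs identifier, among 10943 different Cs identifiers with at least 5 FPKM at 120 days. When these were put in the order of their identifiers, 12 of the 111 falling loci (10.8%) lay directly beside another falling locus, against 1.88% of the remaining loci, 204 in number. Of these 204, 51 (25%) were lower in both 150-day libraries, close to the 22.5% of the 10628 loci that lay beside none. The share that was higher in both 150-day libraries was 12.3% beside a falling locus and 20.7% elsewhere. Their median log2 changes were -0.05 and -0.02. None of these neighbour differences was tested. No identifier of a falling locus occurs in a second row of the table (0 of 129), so none of these runs is 1 identifier listed more than once. Whether neighbours are similar copies or overlapping genes that share reads was not tested, since the files hold neither sequences nor coordinates, and no step that marks the strand is described in the labels' protocols.

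The libraries of a stage were about as close at the falling loci as elsewhere. The median ratio of the higher to the lower library was 1.14 at 120 days and 1.13 at 150 days, against 1.16 and 1.16 over all loci with at least 5 FPKM at 120 days. The rule favours close replicates, since it compares the extreme values. At 120 days 90 of the 129 loci (69.8%) were higher in replicate 2 than in replicate 1, against 58.1% of all loci of that level. At 150 days 64 (49.6%) were higher in replicate 1 than in replicate 2, against 53.9%.

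The spread within the stages was partly shared by libraries of different stages. At 54 falling loci both 120-day replicate 2 and 150-day replicate 1 were the higher libraries of their stages, and at 27 both were the lower. At 36 the higher libraries were the replicates 2 of both stages and at 10 the replicates 1 of both. Over all 12790 loci with at least 5 FPKM at 120 days these counts were 5559, 4020, 1868 and 1341, in the same order. The log2 difference between the 120-day libraries and that between the 150-day libraries, taken in this crossed order, had a Pearson correlation of 0.42 over the 129 loci and 0.60 over the 12790. These points share their 4 libraries and are not independent. Depending on which library of each stage was taken, the median ratio over the falling loci was 2.71 and 2.69 for 120-day replicate 1 over 150-day replicates 1 and 2. For 120-day replicate 2 it was 3.14 and 2.98. The ratios were thus larger with 120-day replicate 2. The rule sets every one of these ratios to at least 2, so the medians are a description only.

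**Figure D5:**
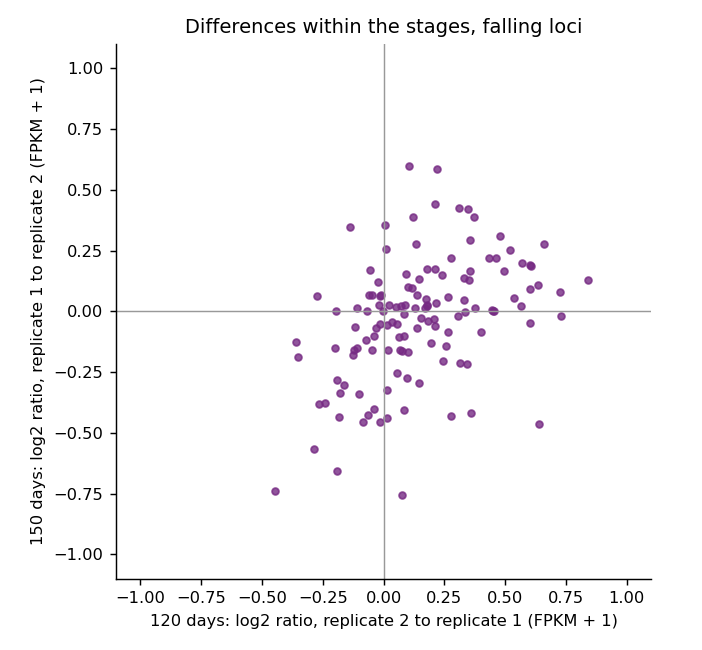
Differences between the libraries of each stage at the 129 falling loci, as log2 ratios of FPKM + 1; the x axis gives 120-day replicate 2 over replicate 1 and the y axis 150-day replicate 1 over replicate 2. Both differences are above 0 at 54 loci and below 0 at 27, and 90 loci lie to the right of 0 on the x axis.

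Loci left out for lack of a single identifier also met the fold and level of the rule. Among loci with no reference gene name 21 of 1253 did so (1.68%), and among those with several identifiers 3 of 462 (0.649%). The most abundant, XLOC_002810 without a name, was at 107416 and 195648 FPKM at 120 days, then at 40488 and 53025 FPKM at 150 days, with a wide spread at 120 days. XLOC_031006, also without a name, was at 4188 and 4002 FPKM and then at 1325 and 1464 FPKM. XLOC_009094, likewise without a name, had the largest ratio among these left-out loci above 0 in every library, 14.5, at 66.8 and 57.4 FPKM and then at 3.96 and 3.89 FPKM. Among loci with several identifiers, XLOC_007199 with Cs3g21160 and Cs3g21170 was at 3739 and 2688 FPKM at 120 days, then 947 and 1031 FPKM at 150 days. At 120 days the means of XLOC_002810, XLOC_031006 and XLOC_007199 were above that of any of the 129 loci. XLOC_004655, with Cs2g04990 and Cs2g05000, was at 249 and 260 FPKM and then at 110 and 110 FPKM. Its identifiers follow that of Cs2g04980 (XLOC_003060), a falling locus with 138 and 138 FPKM at 120 days, then 46.2 and 46.2 FPKM at 150 days. These loci were named after their values were seen.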

How the data were processed

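Peel RNA was sequenced in 4 libraries, 2 per stage. FPKM values per locus and library were computed by the authors. TopHat and Cufflinks were used, per the submitters' processing notes. No source used here names a version of either, a genome build or an annotation. The depth is unknown, so no counting interval is given for FPKM. Locus lengths are not in the table, and fragment numbers were not recovered.

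The falling loci were taken by the rule stated above. All 18727 loci whose mean reached 1 FPKM were compared between stages with limma 3.58.1 in R 4.3.3 on log2(FPKM + 1), with a mean-variance trend, no block and two-sided Benjamini-Hochberg adjusted p of 0.05. Such p-values set the difference between stages against the spread between these pooled libraries, with the variance of each locus drawn towards that of loci of like level. They do not cover the spread between single fruits or trees. pandas 2.3.3, NumPy 2.4.6 and Matplotlib 3.10.9 served for the rest.

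Named loci were the 8 with the largest ratios above 0, the 8 most abundant at 120 days, the 3 highest at 150 days, those listed at 0, 3 on each side of the fold limit, and those with consecutive locus numbers. The members and lists were chosen with earlier results of these data known. Alternatives were other folds, levels, pseudocounts, filters, scalings, a variance model, a replicate block, and leaving out each library. A block with crossed numbers and the Cs5g share under each rule were added after the data were seen. Deviations from the stage means were opposed in same-numbered libraries (r = -0.33 over the tested loci), so the numbers were not taken to pair them.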

Additional observations from a re-analysis of the deposited data

How the results depend on the processing

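The number of falling loci followed the rule. It was 356, 27 and 9 at folds of at least 1.5, 3 and 4, and 248 and 62 at minimum levels of 1 and 20 FPKM. Leaving out one library gave 172 to 227 loci, of which 128 or 129 were among the 129. With a level of 10 FPKM, both scalings, or 1 FPKM added before the fold, it was between 95 and 132. The share from Cs5g was 12.6% at a fold of at least 1.5, and between 15.0% and 22.2% under the other alternatives, 15.0% to 18.0% without one library. The shares at higher folds rest on few loci, 5 of 27 at a fold of at least 3 (18.5%) and 2 of 9 at a fold of at least 4 (22.2%).

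With no filter limma called 46 of 24090 loci lower and 33 of the 129. That setting changes both the number of loci tested and the variances fitted over them, and their parts in the drop were not tested. With the replicate block it called 310 and 122, and with the crossed replicate block 787 and 129. Both blocks leave 1 residual degree of freedom, and no label states what a replicate number stands for. Leaving out one library gave 4 to 91 loci called lower and 0 to 61 of the 129. Under the other alternatives 143 to 183 loci and 103 to 113 of the 129 were called. The filter at a mean of 5 FPKM left 109 of the 129 to be tested.

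The median log2 change of the 129 loci was -1.52 with a pseudocount of 0.1 and -1.08 with 5, which follows from the pseudocount. It was -1.48 to -1.32 without one library, and between -1.42 and -1.39 under the remaining alternatives. Of 332 alternative log2 changes of 26 named loci, 31 were marked as moved by more than the spread between libraries and 0 changed sign. Filters, the variance model and blocks leave a fitted change as it is. Leaving out 1 library can shift it by at most that spread, and the shifts so marked at Cs5g03850 equal it. Most of the 332 values therefore could not move, and the low number that did is a description only. Except under the scalings, the rule fixes the sign in advance, so the lack of changes in sign is a description only. Changes that are small against the spread between 2 libraries cannot be seen here. The causes of these differences were otherwise not tested.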
